A study of Mus musculus with 2 samples.

Results

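Long intergenic non-coding RNAs (lincRNAs) are transcripts that do not encode protein and lie between protein-coding genes. Most are spliced from several exons and many are made at low levels or in few cell types. Some act in the nucleus on the transcription of nearby genes, others bind proteins or other RNAs, and for most no role is known. The probes described here are those that the array design placed on single exons of such transcripts and named for the plus strand, as MM9LINCRNAEXON followed by an exon number and a plus sign. They were chosen from the probe name and not from any measured value. Of 59709 probes on the array other than controls, 1728 carried such a name, and 1725 of the 59625 probes that passed the marks for uneven spots were analysed. The 3 left out, for exons 10529+, 10960+ and 11223+, had an uneven spot on 1 of the arrays. Every member had 1 spot per array. Each had a counterpart probe for the minus strand with the same exon number, and for 1723 exons both probes passed the marks. Members are called below by their exon number and strand.

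The study compared the lungs of male BALB/c mice, 8 weeks old, after injury with paraquat, a herbicide that is taken up by alveolar epithelium and produces oxygen radicals there. The paraquat group received 10 mg/kg in saline into the peritoneum on 5 days and the control group received the same volume of saline, with 10 mice in each group by the labels, although the methods state fewer controls, and a mortality of 70% in the paraquat group. The lower lobe of the right lung was taken on day 12 after the first injection. By the series' design text, RNA came from 3 mixed lungs per group, although both samples' source names also carry a replicate number, and there was 1 array per group, so no spread between animals could be measured and no test was run.

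No gene names, genome positions or probe sequences of the members were available here, so exons cannot be placed in the genome and no sequence is shown. The sources also do not say whether the sign in a name is the strand of the probe or of the transcript, or whether consecutive exon numbers are neighbours in the genome. Of 32 marker genes of lung, blood and heart cell types looked up on the array, 0 were named, so the lung identity of the samples was not checked. In RNA of whole lung, fewer cells of a type and less RNA per cell cannot be told apart. Signals are spot intensities after background subtraction, and log2 differences are the paraquat minus the control value after quantile normalization. The error given after ±, also called the spot SD, is the SD of a difference computed from the errors that the image software gave for the spots. It holds no difference between animals or hybridisations. For bright spots the software's error was a nearly fixed share of the signal, so their ± is always about 0.20 and is no measured spread. For 15 reference genes printed in 20 spots each, the SD of the log2 signal over spots was taken on each array. The SDs of both arrays, combined as the root of the sum of squares, had a median of 0.19 and ranged from 0.14 to 1.41. The highest came mainly from the control array, where the SD was 1.40, beside 0.09 on the paraquat array.

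Slightly more of the exon probes gave a signal above background in control than in paraquat lungs. On the control array 923 members (53.5%) were well above background, which is the detection call of the image software, and on the paraquat array 858 (49.7%). Both arrays detected 773 members (44.8%), 1 array only detected 235, and 717 (41.6%) were not detected on either. Over all probes of the array, 62.7% were detected on the control and 58.6% on the paraquat array. The minus-strand probes were detected at 62.6% and 54.2%, and the 688 probes for whole mouse lincRNA transcripts at 36.5% and 35.5%. Among members detected on 1 array only, 150 (8.70%) were seen in the control lungs and 85 (4.93%) in the paraquat lungs, beside 8.61% and 4.47% of all probes.

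Signals of the detected members spanned several orders of magnitude. On the control array the lowest was 19.7, the median 103 and the highest 120300, with the middle 50% between 40.4 and 316. The paraquat array had a lowest signal of 13.3, a median of 64.2 and a highest of 118289, with the middle 50% between 28.9 and 214. A signal of at least 1000 was reached by 136 members in control lungs and 99 in paraquat lungs. No member was saturated.

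Quantile normalization gives both arrays the same distribution over all probes, and after it the differences between the arrays were centred near 0. For the 773 members detected on both, the median log2 difference was -0.07, the middle 50% lay between -0.56 and 0.50, and the SD over members was 1.01. All 32274 probes detected on both arrays had a median of -0.04 and an SD of 1.08. Of the members, 73.6% differed by less than 2-fold and 89.9% by less than 3-fold.

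Few members passed 5-fold, the threshold used by the study. Of the 773, 19 (2.46%) exceeded 5-fold upwards in paraquat lungs, beside 2.77% of all probes with the same detection. At least 5-fold lower were 9 members (1.16%), beside 1.78% of such probes. At 3-fold the counts were 49 higher (6.34%, all probes 7.52%) and 29 lower (3.75%, all probes 5.59%). All 4 shares were below those of the whole array. Counting also members detected on 1 array only, 50 of 1008 (4.96%) were 5-fold higher and 34 (3.37%) lower, beside 5.54% and 4.56% of all probes. This split depended on the scaling of the arrays. With a shift to the 75th percentile it was 60 higher and 22 lower, and with no normalization between arrays it was 20 higher and 84 lower. The 75th percentile shift placed the median difference of all probes at 0.09, and without normalization it was -0.83.

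**Figure D1:**
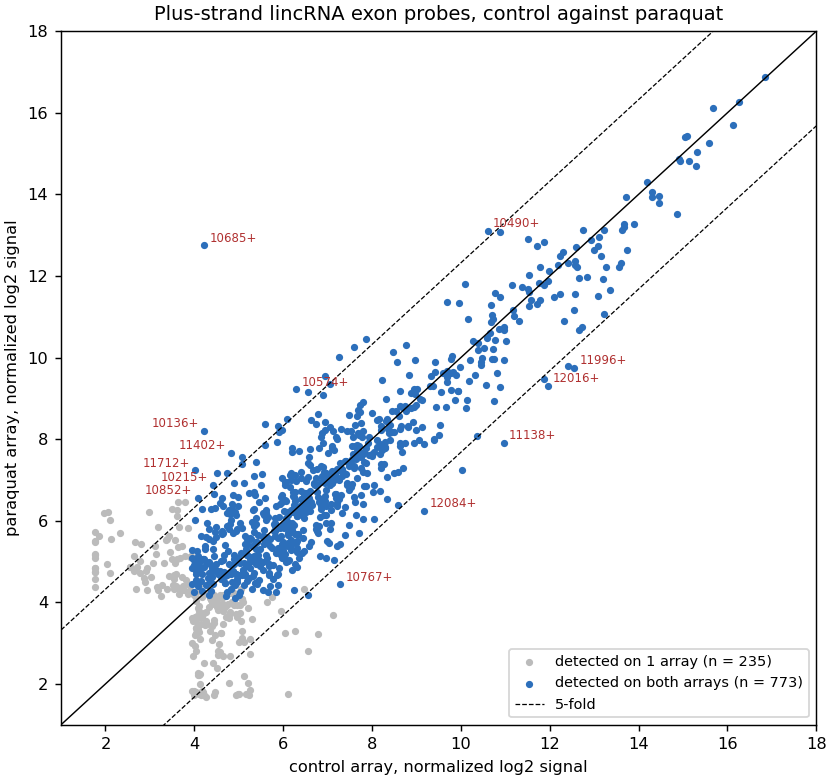
Normalized log2 signal of plus-strand lincRNA exon probes on the control array (x axis) and the paraquat array (y axis). Blue points are the 773 members detected on both arrays and grey points the 235 detected on 1 array only. The solid line marks equal signal and the dashed lines 5-fold. Exon 10685+ lies far above the upper line, at a log2 difference of 8.53, and the labelled members are those past 5-fold under 4 settings.

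Counts of higher members were concentrated on 1 side of the slide, as they were over all probes. In array columns 1 to 64, 39 of 328 members detected on at least 1 array (11.9%) were 5-fold higher and 17 (5.18%) lower, beside 10.3% and 4.55% of all probes there. In columns above 80, 10 of 584 (1.71%) were higher and 11 (1.88%) lower, beside 2.58% and 4.42% of all probes. The control array detected 41.4% of members in columns 1 to 64 and 62.3% in columns above 80, and the paraquat array 44.6% and 54.1%. The median log2 difference of members detected on both arrays was 0.51 on the left side and -0.23 on the right. A spot's difference was therefore also computed after subtracting the median difference of its 50 nearest detected neighbours of similar signal, called the position-corrected difference below. After this correction, 24 members detected on at least 1 array (2.38%) were 5-fold higher and 31 (3.08%) lower, beside 3.85% and 4.22% of all probes. The lower ones stayed uneven, with 26 (7.93%) in columns 1 to 64 and 2 (0.34%) above 80, beside 7.09% and 2.33% of all probes. The higher ones were 9 (2.74%) and 13 (2.23%), beside 4.41% and 3.39% of all probes. The correction thus centred the differences but did not even out the lower counts between the sides. Among members detected on both arrays the correction left 9 higher (1.16%) and 10 lower (1.29%), beside 2.08% and 1.98% of all probes. Of the 19 members detected on both arrays and 5-fold higher, 16 lay in columns 1 to 64 and 8 remained 5-fold higher after the correction. Of the 9 lower ones, 4 lay in columns 1 to 64 and 5 remained.

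**Figure D2:**
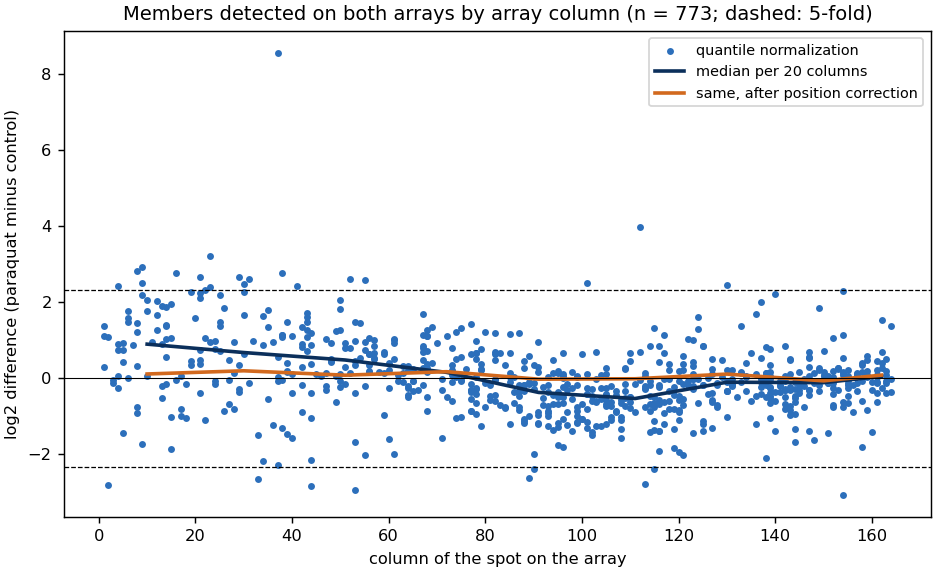
Log2 difference (paraquat minus control) of the 773 members detected on both arrays, plotted by the column of the spot on the array. The dark line is the median per 20 columns and the orange line the same median after the position correction. Most points above the upper dashed line at 5-fold lie in columns 1 to 64, where the median is 0.51, and the orange line stays near 0 across the slide.

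In all, 13 members were detected on both arrays and passed 5-fold in the same direction with quantile normalization, a 75th percentile shift, loess and the position correction. Of these 13, 8 were higher in paraquat lungs and 5 lower.

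Exon 10685+ had the greatest difference of all members. Its signal was 24.0 in control lungs and 6132 in paraquat lungs, that is 8.53 ± 0.31 on the log2 scale or 371-fold. Correcting for position brought it to 7.93, and over the 8 alternatives that gave a value it lay between 6.27 and 8.92. Only 1 of the 32274 probes detected on both arrays was further up, 9 probes reached 6 on the log2 scale, and the next member stood at 3.98. The raw brightness of this spot was 66 on the control and 5579 on the paraquat array over a local background of 24. Its spot extent was 23.9 on the control and 20.0 on the paraquat array, beside medians of 26.2 and 26.0. The brightest of the 24 spots around it had a signal of 38378 on the control and 111748 on the paraquat array. The spot lay in array column 37, on the side of the slide where higher members were concentrated. No probe near it in the numbering differed in the same way. The minus-strand probe of the same exon had a signal of 272 in control and 95.2 in paraquat lungs (-0.58). Exon 10684+ had 21.9 and 8.60, the second not well above background, and exon 10686+ was not detected on either array. The minus-strand probes of exons 10684 and 10686 were detected on both arrays, at -0.64 and 0.05. The authors' processed values hold no value for 10685+. The difference of this exon thus rests on 1 spot per array.

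The other 7 members that were higher came mostly from dim spots. Exon 10136+ had signals of 24.1 in control and 216 in paraquat lungs (3.98 ± 0.31, 15.8-fold). For exon 11712+ they were 20.9 and 109 (3.21 ± 0.34, 9.26-fold). Exon 11402+ had 37.8 and 147 (2.83 ± 0.25, 7.09-fold). These control signals were close to the lowest detected signal of that array, 19.4, and so were those of the next pair. Exon 10852+ had 21.7 in control and 69.3 in paraquat lungs (2.49 ± 0.33). Exon 10215+ had 28.1 and 85.3 (2.45 ± 0.29). Normexp background correction, which pulls dim spots together, brought 10852+ to 0.83 and 10215+ to 1.03. It also took 10136+ to 2.31, 11712+ to 1.34 and 11402+ to 1.56, so that none of these 5 reached 5-fold under it. Next to 10215+ in the numbering, exon 10216+ went from a signal of 3.86, below detection, to 27.3 in paraquat lungs. Its lower bound was 2.42-fold, and its spot lay in array column 38. The minus-strand probe of exon 10215 had 980 in control and 378 in paraquat lungs (-0.55). Adjacent plus-strand exons detected on both arrays did not rise. Exon 10137+, beside 10136+, was at -0.03, and exons 11711+ and 11713+, beside 11712+, were at -0.23 and -0.74.

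Brighter spots were behind exons 10574+ and 10490+. Exon 10574+ had 107 in control and 450 in paraquat lungs (2.93 ± 0.21, 7.61-fold), and 2.85 after the position correction. Exon 10575+, next in the numbering, was also higher, with 3948 and 6071 (1.02, and 0.68 after the position correction). The minus-strand probe of exon 10574 had 53.3 in control and 32.1 in paraquat lungs (0.12). Exon 10490+ had 1950 in control and 8067 in paraquat lungs (2.51 ± 0.20, 5.68-fold) and ranged from 2.05 to 2.97 over the other ways of processing. Both neighbours of 10490+ on the plus strand, 10489+ and 10491+, were undetected on both arrays. Its minus-strand probe had 28.9 and 25.7 (0.64). Exons 10574+ and 10490+ both lay in array column 9.

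The 5 lower members had control signals of at least 215. The filter asked for detection on the paraquat array and a fall past 5-fold, so it left out control signals near background. Exon 11138+ had 2433 in control and 175 in paraquat lungs (-3.06 ± 0.21, 8.33-fold lower). Exon 12084+ had 774 and 55.5 (-2.93 ± 0.22, 7.64-fold lower). Exon 10767+ had 215 and 16.6 (-2.84 ± 0.33, 7.17-fold lower). The paraquat signal of 10767+ was near the lowest detected on that array, 13.2, and after normexp its difference was -1.47. Exon 11996+ had 6714 in control and 667 in paraquat lungs (-2.79 ± 0.20, 6.93-fold lower). Exon 12016+ had 4600 and 478 (-2.65 ± 0.20, 6.26-fold lower). For 11138+, 11996+ and 12016+ the difference lay at or below -2.34 under all alternatives computed.

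**Figure D3:**
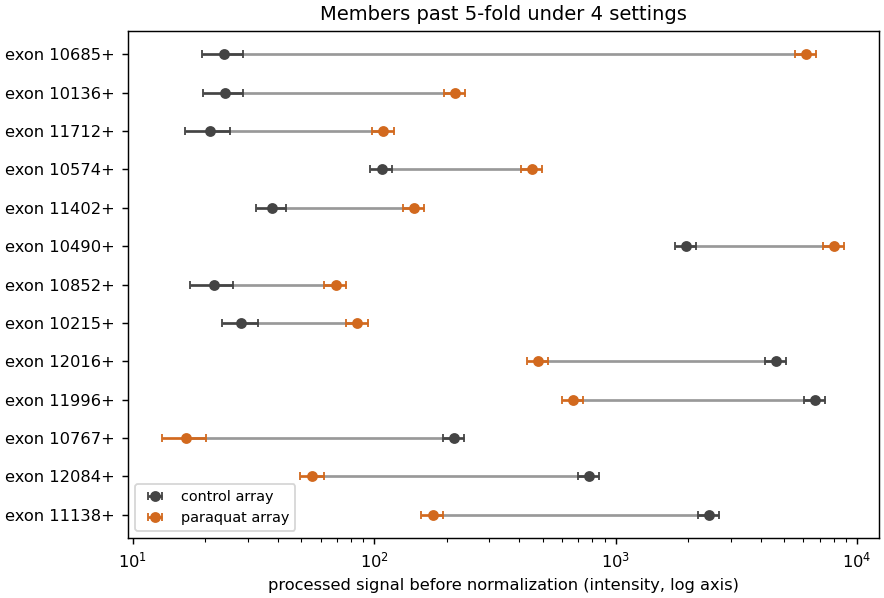
Processed signal before normalization between arrays (x axis, log scale) of the 13 members past 5-fold under 4 settings, on the control array (grey) and the paraquat array (orange). Bars are the spot errors estimated by the image software. The 8 members at the top were higher in paraquat lungs and mostly started from control signals under 40. All 5 at the bottom started at 215 or more. These 5 also had to be detected on the paraquat array, so the filter left out control signals near background for them.

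Exons lying close to each other in the numbering were examined next. Of the 5 members just described, only 12016+ had a directly adjacent exon that was detected and clearly lower (12017+, -1.05). A run was defined as at least 3 consecutive exon numbers, all detected on both arrays and all at least 3-fold in 1 direction. Only 1 run met this, formed by exons 11295+, 11296+ and 11297+. Exon 11295+ had signals of 7632 in control and 1382 in paraquat lungs (-1.99 ± 0.20). Exon 11296+ had 6159 and 683 (-2.62 ± 0.20), and exon 11297+ had 7243 and 1312 (-1.98 ± 0.20). Their 3 spots lay in array rows 222, 128 and 381 and columns 90, 89 and 61. They were thus far apart by row, but 11295+ and 11296+ lay in adjacent columns. The position-corrected differences of the 3 exons were -1.69, -2.30 and -1.89. The authors' processed values gave -2.02, -2.58 and -2.00. With the 75th percentile shift 11295+ and 11297+ were both at -1.54, just short of 3-fold. The next exons in the numbering were dimmer and differed less, with 118 and 51.8 for 11298+ (-0.28) and 66.6 and 34.5 for 11299+ (-0.08). On the minus strand the signals of exon 11295 were 191 and 76.3 (-0.40) and those of exon 11297 were 278 and 99.3 (-0.56). The minus probe of exon 11296 had 19.6 in control lungs and was not detected in paraquat lungs.

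A looser search was made after these values had been seen, for members detected on both arrays and past 3-fold in 1 direction that lay at most 2 numbers apart. It found 4 groups, 3 of them lower in paraquat lungs and 1 higher. One of the lower groups was the run above. Another lay around 11138+, where exon 11136+ had 4339 in control and 540 in paraquat lungs (-2.39, 5.25-fold lower) and exon 11135+ had 439 and 67.1 (-1.81, 3.51-fold lower). Between them and 11138+, exon 11137+ hardly differed, with 43.2 and 23.3 (-0.06). Exon 11140+, further on, had 548 and 236 (-0.33). The spots of 11135+, 11136+ and 11138+ lay in array rows 311, 315 and 7 and columns 158, 90 and 154. All 3 kept their direction after the position correction, at -2.01, -2.06 and -3.01.

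The remaining lower group was formed by 12016+ and 12018+, the second with signals of 156 in control and 26.3 in paraquat lungs (-1.69, 3.22-fold lower; -1.45 after the position correction and -0.87 after normexp). Between them, exon 12017+ had 10820 and 4162 (-1.05, 2.08-fold lower). After them, exon 12019+ had 173 and 51.9 (-0.82, 1.77-fold lower) and exon 12020+ had 149 and 113 (0.51). The first 4 exons of this stretch were thus lower in paraquat lungs and the fifth was not. The 1 higher group held exon 10665+, with 42.1 in control and 70.0 in paraquat lungs (1.60 ± 0.36), and exon 10667+, with 80.4 and 234 (2.43 ± 0.22). Exon 10665+ was only just past 3-fold. After the position correction the pair was at 2.02 and 2.16, and after normexp at 0.87 and 1.65. Exon 10666+ between them was not detected on either array.

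Most runs of at least 7 consecutive detected exons held both higher and lower members, and each held a member past 2-fold. The 773 members detected on both arrays fell into 460 runs of consecutive numbers, of which 72 held at least 3 members, 8 at least 5 and 5 at least 7. The longest were exons 10228+ to 10236+ and 10259+ to 10267+, with 9 each. In 10228+ to 10236+ the log2 differences ran from -1.01 to 0.63, with 4 members higher and 5 lower. In 10259+ to 10267+ they ran from -1.03 to 0.26, with 2 higher and 7 lower, and signals in control lungs from 57.1 to 37791. Exons 10074+ to 10080+ were the only run of at least 7 in which all members were lower, though with the 75th percentile shift exon 10074+ was at 0.65. After quantile normalization exon 10074+ had 33264 in control and 27583 in paraquat lungs (-0.05), whereas exons 10075+, 10077+ and 10079+ had 890 and 183 (-1.43), 776 and 171 (-1.30), and 442 and 97.6 (-1.27). The remaining 3 lay between -0.80 and -0.48. In the run 10819+ to 10826+, exon 10825+ stood out with 593 in control and 1002 in paraquat lungs (1.54). In the run 11016+ to 11023+ it was exon 11022+, with 1647 and 199 (-2.27), while exon 11023+ had 6172 and 4465 (-0.09).

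**Figure D4:**
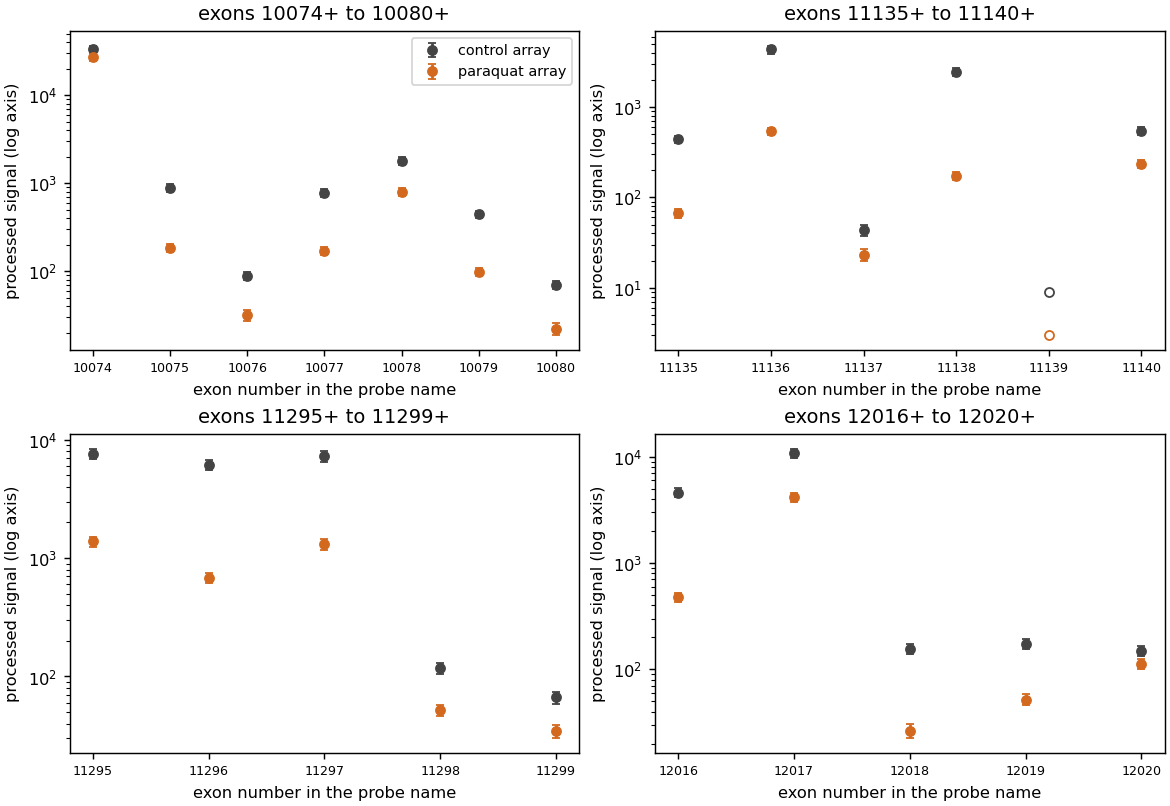
Processed signal before normalization (y axis, log scale) on the control array (grey) and the paraquat array (orange) for 4 stretches of exon numbers (x axis), with spot errors as bars. Open symbols without bars mark signals not well above background. Before normalization the median log2 difference of members detected on both arrays was -0.87, so a small downward step is common to most exons. The steps for 11135+, 11136+, 11138+, 11295+ to 11297+, 12016+ and 12018+ are the largest, at -2.46 or below. Others also exceed the median step, among them 10075+ (-2.28), 10077+ and 10079+ (both -2.18) and 12019+ (-1.74).

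Adjacent exon numbers were no more alike in detection than distant ones, and their differences were weakly correlated. A member was detected on at least 1 array in 59.0% of cases where its neighbour was and in 55.4% where its neighbour was not, over 1525 pairs of consecutive numbers. The gap was no smaller between members 50 numbers apart, at 60.2% and 55.2%. Over the 313 pairs detected on both arrays, the log2 differences correlated with a Pearson r of 0.18 and a Spearman rho of 0.20. For the 310 pairs more than 20 rows or columns apart on the slide r was 0.17. At steps of 2, 3, 5, 10 and 50 in the numbering r was 0.11, 0.19, 0.05, -0.07 and 0.002. These coefficients run across probes that share both hybridisations, so they are given as a description.

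Plus and minus probes of 1 exon were only weakly related. Of 1723 exons, 685 (39.8%) were detected on both strands on at least 1 array, 321 (18.6%) on the plus strand only, 467 (27.1%) on the minus strand only and 250 (14.5%) on neither. The minus probe was detected for 68.1% of the exons with a detected plus probe and for 65.1% of the others. For the 403 exons with both strands detected on both arrays, the log2 differences of the strands correlated with r 0.11 and rho 0.15, and with 0.19 and 0.20 after the position correction. Among these, 114 exons were higher on both strands, 113 lower on both, and the others had opposite signs, 89 with plus higher and 87 with minus higher. At least 5-fold on both strands were 0 exons.

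At 3-fold, 4 exons passed on both strands. Exon 10103 was higher on both, with 20.8 in control and 47.8 in paraquat lungs on the plus strand (2.00) and 66.9 and 154 on the minus strand (2.10). Exon 11267 was lower on both, with 10445 and 1764 on the plus strand (-2.16) and 314 and 48.9 on the minus strand (-1.77). Exon 11996, among the 5 lower members above, had 579 and 88.2 on the minus strand (-1.81). Exon 11022 went in opposite directions, at -2.27 on the plus strand and 1.74 on the minus strand, where the signals were 31.6 and 58.5. After the position correction the minus probes of 11267 and 11022 were at -1.23 and 1.21, short of 3-fold. With normexp none of the 4 exons passed 3-fold on both strands. Exon 10103 was then at 0.59 and 1.23, and the minus probes of 11267, 11996 and 11022 were at -1.04, -1.40 and 0.47. The control signal of 10103+ was near the lowest detected on that array, 19.4. Of the 19 members that were 5-fold higher and detected on both arrays, the minus probe was detected on both arrays for 8, and 4 of these had the same sign. For the 9 that were lower it was detected for 5, and all 5 were also lower on the minus strand, 1 of them by 3-fold.

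**Figure D5:**
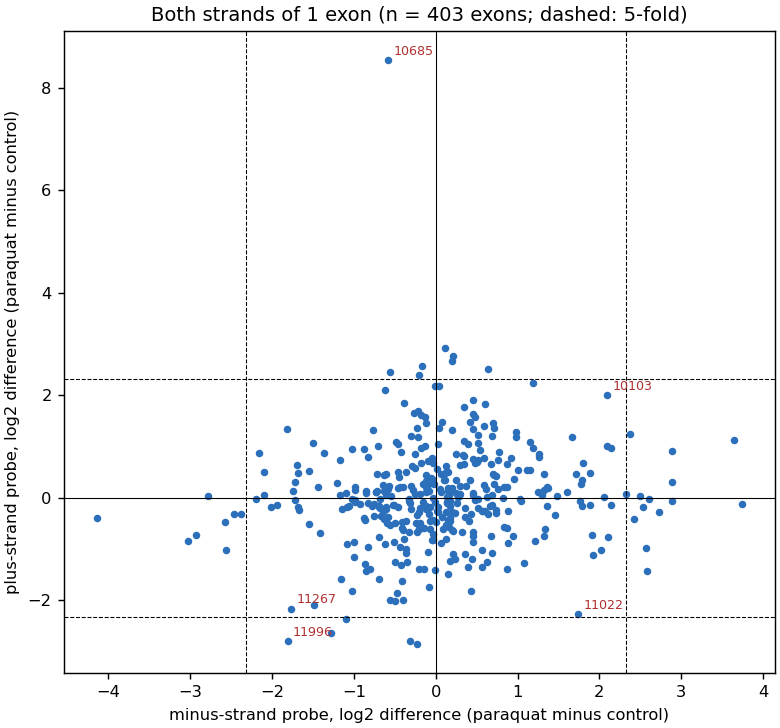
Log2 difference (paraquat minus control) of the minus-strand probe (x axis) and the plus-strand probe (y axis) of the 403 exons detected on both strands and both arrays. Dashed lines mark 5-fold. Points spread along both axes with little slope (r 0.11), no exon lies past 5-fold on both strands, and 10685 is far up on the plus strand only.

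Shares past 5-fold were also set beside those of the minus strand. Of members detected on at least 1 array, 34 of 1008 (3.37%) were at least 5-fold lower, and of minus-strand probes 89 of 1154 (7.71%) were. The higher shares were 4.96% and 5.11%. Among probes detected on both arrays the lower shares were 1.16% and 1.97%. This difference between the strands was not tested, as 1 array per group allows no test over samples.

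For members detected on 1 array only, the fold is given as a lower bound. It was set against the lowest detected signal of the other array, or against the member's own undetected signal there where that was higher. The bound reached 5-fold for 4 of the 85 members detected in paraquat lungs only, beside 12.6% of all such probes, and for 3 of the 150 detected in control lungs only, beside 4.69% of all such probes. These bounds are those after quantile normalization. With normexp the measured log2 differences of the 5 paraquat-only members named here lay between 0.14 and 1.01 and those of the 5 control-only members between -1.45 and -0.58. Exon 10436+ had a signal of 65.0 with a spot error of 18.7 in paraquat lungs and was at least 5.87-fold higher, and exon 10709+, with 57.2, at least 5.17-fold higher. Exons 10970+, 10462+ and 11249+ followed with at least 5.83-fold, 5.05-fold and 4.93-fold, but lay in array columns 9 to 15. There the position correction lowered the measured log2 differences of the first 2 from 2.82 and 2.64 to 1.23 and 1.29. In the other direction, exon 11182+ had a signal of 193 in control lungs and was at least 8.28-fold lower. Exon 10646+ had 151 and was at least 6.49-fold lower, and exon 11093+ had 128 and was at least 5.54-fold lower. Exons 10324+ and 11919+ had bounds of 4.53-fold and 4.39-fold lower, the second being the same as its measured fold.

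The members with the highest mean signal differed by less than 2-fold after quantile normalization. Exon 10151+ had 120300 in control and 118289 in paraquat lungs (0.03 ± 0.20). Exon 10465+ had 75813 and 82310 (0.01 ± 0.20). Exon 10435+ had 70359 and 51905 (-0.44 ± 0.20), and exon 10504+ had 53485 and 73341 (0.46 ± 0.20). The 10 members ranged from -0.60 for exon 10950+ to 0.46 for exon 10504+. With the 75th percentile shift 4 of them exceeded 2-fold, namely 10465+ (1.04), 10504+ (1.38), 11220+ (1.16) and 11341+ (1.16). For 10435+, 10659+, 10664+, 10950+ and 10267+ the sign depended on the scaling, being below 0 after quantile normalization and above 0 with the 75th percentile shift.

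When the members detected on both arrays were split into 3 classes by mean signal, the dim class of 258 had 4 members at least 5-fold higher and 2 lower. The middle class of 257 had 7 and 0, and the bright class of 258 had 8 and 7. The classes were not formed over all probes, so whether this split is particular to the members was not tested. The spread of the log2 differences was 0.91, 0.97 and 1.13 from dim to bright (SD over members). The median spot SD was 0.30 in the dim and 0.20 in the bright class, the latter being the nearly fixed value of bright spots. The bright class holds exon 10685+, and without it its SD was 0.99.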

How the data were processed

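Feature Extraction 10.7.3.1, per the file headers, turned each scan of the 1-colour Arraystar mouse lncRNA array (design on mm9) into a spot intensity that was background-subtracted and detrended across the slide. The authors deposited these intensity values with 0 or 1 marks for detection, unevenness and saturation. Both arrays were read in the same scan, and a multiplicative trend correction was applied to the paraquat array only. A second deposited table gives log2 values for 14331 probes, 698 of them members, which the methods describe as quantile-normalized in GeneSpring GX. It served as an alternative.

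Spots marked as uneven or as outliers were left out with 20 negative probes, repeated spots were averaged, and log2 processed signals were quantile-normalized over 59625 probes. Detection was the mark for well above background. For a member detected on 1 array only, the bound was set against the lowest normalized signal of a detected probe on the other array (control 15.1, paraquat 17.0). Where the member's own undetected signal there was higher, that signal was used instead. To correct for position, each difference was reduced by the median of those of the 50 nearest detected probes in the same 1 of 5 classes of mean signal. With 1 array per group, precision is limited by the number of arrays.

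Named were the 10 members of highest mean signal, members past 5-fold under 4 settings (up to 12 per direction), the 5 largest bounds per direction, runs of 3 or more at 3-fold, and exons past 5-fold on both strands. Members named in the runs of at least 7, at 3-fold on both strands, beside another member or in groups at most 2 numbers apart fall outside this rule and were chosen after their values were seen. The members, lists and settings were chosen with earlier results of these data known. The steps were tested on simulated data. Alternatives were cyclic loess, shifts to the 75th percentile or the median, no normalization, no background subtraction, normexp (offset 50), quantile normalization over detected probes, the authors' processed values, the position correction, either side of the slide, other detection rules, and 3-fold and 2-fold thresholds. The software was limma 3.58.1 in R 4.3.3, and pandas 2.3.3, numpy 2.4.6, matplotlib 3.10.9 and scipy 1.17.1 in Python 3.11.15.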

Additional observations from a re-analysis of the deposited data

How the results depend on the processing

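The 50 higher and 34 lower members at 5-fold became 24 and 31 with the position correction, 20 and 84 without normalization, 60 and 22 with the 75th percentile shift, 4 and 5 with normexp, 7 and 7 without background subtraction, and 14 and 7 in the authors' values for 695 members. They became 19 and 9 when detection on both arrays was required (also with quantile normalization over those probes), 23 and 12 with undetected signals raised to the lowest detected one, 10 and 11 in columns above 80, and 39 and 17 in columns 1 to 64. At 3-fold they were 104 (10.3%) and 81 (8.04%), beside 10.9% and 9.90% of all probes. At 2-fold they were 178 (17.7%) and 172 (17.1%), beside 18.2% and 18.9%. No share over all probes was taken without normalization, with the 75th percentile shift, with normexp, without background subtraction or in the authors' values. Whether those changes were particular to the members was not tested. The median log2 difference of -0.07 became -0.87 without normalization and 0.51 in columns 1 to 64. In columns above 80 alone, 564 members were detected on the control and 490 on the paraquat array. With any significantly positive signal as detection, 1232 exons were detected on both strands, 432 on 1 and 59 on neither. The correlation of the strands became 0.19 with the position correction. Fewer probes were open to a count under the stricter detection rules and in part of the slide. For the other settings the cause was not tested. For the 36 named members, 185 of 302 member and setting pairs lay within the spot SD of the reported difference and 117 moved further. Of the members past 5-fold, 0 changed sign. All 13 members past 5-fold under 4 settings stayed so with the median shift, 8 without normalization, 5 with normexp, 8 without background subtraction and 9 of 11 in the authors' values. No paired analysis was possible because each group had 1 array. Signals under about 40 lie near background, which limits the folds of dim members.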
